A study of Caenorhabditis elegans with 11 samples.

Results

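The 81 genes for proteins of the cytosolic ribosome were described in RNA sequencing libraries of whole L4 larvae of Caenorhabditis elegans. Members were the protein-coding genes whose name begins with rpl- (large subunit, 47 genes), rps- (small subunit, 31 genes) or rla- (the acidic proteins of the ribosomal stalk, 3 genes). They were 81 of the 46926 genes of the deposited count table, and all 81 were among the 18798 genes of the deposited TPM table and the 16013 genes tested. The 11 libraries covered 4 genotypes: the double mutant atfs-1(null)_nhr-180(cmh19) with 3 libraries, atfs-1(null) with 3, nhr-180(cmh19) with 2 (replicates 2 and 3), and wildtype with 3. Per the labels, all animals ate HT115 E. coli and were taken at L4, an RNA pool of all tissues, and the replicates were biological. The labels name no shared day or batch. The atfs-1 gene encodes the transcription factor that switches on the response to unfolded proteins in mitochondria, and nhr-180 belongs to the large nuclear hormone receptor family. The series title concerns cytosolic translation and mitochondrial dysfunction, and the comparisons here ask whether the mRNAs of the translating machine itself differed between these genotypes.

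A ribosome holds 1 copy of nearly every ribosomal protein, so cells make these proteins in matched amounts. Growing animals spend a large share of their mRNA on them. The stalk formed by rla-0, rla-1 and rla-2 recruits translation factors, rps-6 encodes the small-subunit protein phosphorylated by S6 kinase downstream of TOR, and rpl-3 encodes a protein that reaches towards the site where peptide bonds form. A few worm ribosomal proteins have 2 gene copies, or paralogs, among them rpl-11.1 with rpl-11.2 and rpl-25.1 with rpl-25.2.

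No ribosomal protein mRNA passed edgeR's test in any comparison of genotypes. The clearest pattern lay between paralogs. Within each of the 4 genotypes, libraries with more oocyte marker mRNA had more rpl-11.1 relative to rpl-11.2 and less rpl-25.1 relative to rpl-25.2. Each genotype had only 2 or 3 libraries. Over all 11 libraries the 2 ratios also went with the level of sperm markers (r = 0.95 and -0.81). These relations were chosen after the values were seen.

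Total counts were between 20860822 and 22921602 per library. The genotype labels held: atfs-1 mRNA stood at 0.23 to 2.62 TPM (the deposited length-normalised level, which sums to 1000000 in each library) in the 6 libraries of the double mutant and atfs-1(null), against 21.7 to 31.4 TPM in the other libraries. The nhr-180 mRNA stood at 0.248 to 0.524 TPM in the 5 libraries of the double mutant and nhr-180(cmh19), against 2.70 to 4.93 TPM in the others. No marker of body wall muscle (15 genes), intestine (14), hypodermis (15) or neurons (15) was at 0 in any library. Their summed levels differed between libraries, from 10755 to 15949 TPM for body wall muscle and from 6646 to 8935 TPM for intestine. They ran from 5755 to 12652 TPM for hypodermis and from 497 to 859 TPM for neurons. These sums were not set beside the paralog ratios described below.

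Together the 81 mRNAs made up 25.95%, 26.65% and 24.70% of all TPM in double mutant libraries 1, 2 and 3. They made up 29.65%, 27.45% and 26.55% in atfs-1(null) libraries 1 to 3. They made up 22.12% and 25.02% in nhr-180(cmh19) libraries 2 and 3, against 25.13%, 28.09% and 26.22% in wildtype libraries 1 to 3. The lowest library was nhr-180(cmh19) replicate 2 and the highest atfs-1(null) replicate 1. The double mutant, atfs-1(null) and wildtype ranges overlapped, and both nhr-180(cmh19) libraries lay below all wildtype libraries, the higher of them by a narrow margin. As a share of counts, nhr-180(cmh19) libraries had 11.3% and 13.97%, against 12.88%, 14.8% and 13.55% in wildtype, and overlapped them. Mean shares of TPM were 25.8% ± 0.987 in the double mutant (SD, n = 3), 27.9% ± 1.59 in atfs-1(null) (n = 3), 23.6% ± 2.06 in nhr-180(cmh19) (n = 2) and 26.5% ± 1.495 in wildtype (n = 3). Small-subunit mRNAs summed to 0.772 to 0.820 times the large-subunit mRNAs in every library, so the subunits kept nearly the same proportion across genotypes. In such bulk samples, fewer cells of a type and less RNA per cell cannot be told apart.

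**Figure D1:**
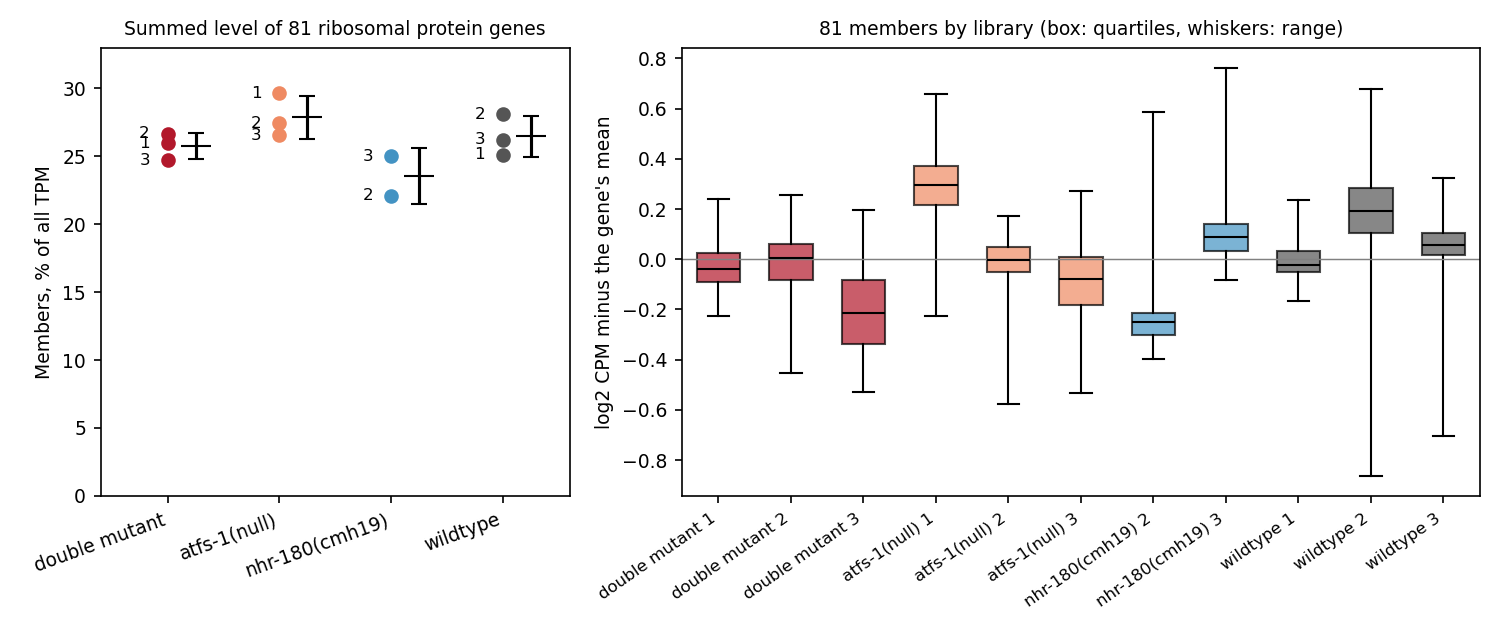
Left, the share of all TPM (percent) taken by the 81 ribosomal protein genes in each library (points, with replicate numbers) and the mean ± SD of each genotype (bars); right, boxes of the 81 genes' log2 CPM (counts scaled to a TMM-adjusted library size of 1000000) minus each gene's mean over the 11 libraries. The genotypes' shares lie between 22.12% and 29.65%, and the median member sits highest in atfs-1(null) replicate 1 and lowest in nhr-180(cmh19) replicate 2.

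Most members were among the most abundant mRNAs of the animal: 69 of the 81 were among the 100 genes with the highest mean TPM, and 77 were at or above 1000 TPM. The most abundant were rpl-41.2 with a mean of 6633 TPM over the 11 libraries, rps-25 with 6282, rps-8 with 5545, rpl-23 with 5426 and rps-7 with 5356. Over the 11 libraries the TPM of these 77 mRNAs varied little, and the ratio of highest to lowest library had a median of 1.44 and ran between 1.22 and 1.92. The 4 members below 1000 TPM were far below it: rpl-42 at a mean of 3.78 TPM, rpl-37 at 89.5, rpl-24.2 at 103.6 and rpl-41.1 at 300.3, with rps-22 the next lowest at 1113. Of these, rpl-24.2 resembles yeast Rlp24, a factor of large-subunit assembly. Its level was 0.0186 to 0.0234 times that of rpl-24.1. The pair rpl-41.1 and rpl-41.2 showed a similar imbalance, with rpl-41.1 at 0.0386 to 0.0493 times rpl-41.2.

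Part of the members' variation between replicates was shared by most of them, and a minority did not follow it. The SD of log2 TPM within a genotype had a median of 0.127 over the 77 abundant members. It was 0.089 after the median of the members in each library was subtracted, and 0.206, with no such subtraction, for the 89 other genes at or above 1000 TPM. The subtraction lowered the SD of 58 of the 77 members and raised that of the other 19, among them rps-2 (0.267 after and 0.213 before), rpl-3 (0.131 after and 0.064 before) and rla-0 (0.156 after and 0.097 before). Of the 81 genes, 25 lie on chromosome I (30.9%, against 15.4% of the protein-coding genes in the TPM table) and 2 on chromosome X (2.47%, against 14.3%). The 2 on chromosome X are rpl-11.2 and rpl-25.1, each 1 of a paralog pair whose partner is on an autosome. The X chromosome is known to be repressed in much of the germline of this species. Any part of that in the levels of these 2 genes was not tested.

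The paralog pair rpl-11.1 and rpl-11.2 encodes uL5, a protein of the central protuberance of the large subunit. In WBcel235 coordinates, which matched the files' gene spans, rpl-11.1 lies at V:3585312-3586064 and rpl-11.2 at X:2241738-2242618, both on the minus strand. The rpl-11.1 mRNA had 1865, 2160 and 2028 TPM in double mutant libraries 1 to 3, 2569, 1414 and 1697 TPM in atfs-1(null) libraries 1 to 3, and 1540 and 1691 TPM in nhr-180(cmh19) libraries 2 and 3, against 1659, 1407 and 1568 TPM in wildtype libraries 1 to 3. The double mutant libraries all lay above the wildtype libraries, and atfs-1(null) spanned both. The rpl-11.2 mRNA had 1823, 1841 and 1526 TPM in double mutant libraries, 2064, 2147 and 1993 TPM in atfs-1(null) libraries, and 1546 and 1831 TPM in nhr-180(cmh19) libraries, against 1895, 2514 and 2081 TPM in wildtype libraries. In TPM, the double mutant and nhr-180(cmh19) libraries all lay below wildtype for this paralog, and atfs-1(null) lay inside the wildtype range. In CPM scaled by TMM the double mutant also lay below wildtype, while nhr-180(cmh19) replicate 3, at 1307 CPM, lay above wildtype replicate 1, at 1251 CPM.

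The ratio of rpl-11.1 to rpl-11.2 was 1.02, 1.17 and 1.33 in double mutant libraries 1 to 3. It was 1.24, 0.658 and 0.851 in atfs-1(null) libraries, 0.996 and 0.924 in nhr-180(cmh19) libraries 2 and 3, and 0.875, 0.560 and 0.753 in wildtype libraries. Means were 1.18 ± 0.153 in the double mutant, 0.918 ± 0.299 in atfs-1(null), 0.960 ± 0.0509 in nhr-180(cmh19) (n = 2) and 0.729 ± 0.159 in wildtype (SD, n = 3 elsewhere). No double mutant library overlapped with wildtype. The summed level of 22 oocyte markers (RNA-binding and eggshell genes such as oma-1, mex-3, cpg-1 and spn-4) was 1809, 2272 and 2769 TPM in double mutant libraries 1 to 3. It was 1426, 579 and 1019 TPM in atfs-1(null) libraries, 795 and 602 TPM in nhr-180(cmh19) libraries 2 and 3, and 787, 329 and 584 TPM in wildtype libraries. No oocyte marker was at 0 in any library.

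Across the 11 libraries, the log2 ratio of rpl-11.1 to rpl-11.2 rose with the log2 of the oocyte sum (Pearson r = 0.89, permutation p = 0.00026; Spearman rho = 0.91, permutation p = 0.00024). Adjusted over 12 such relations (6 pairs by 2 marker lists) the p-values were 0.0016 and 0.0014, 2-sided. The pairs were paralogs, the stalk partners rla-1 and rla-2, and rpl-7A with rpl-7, which share a name stem and are not paralogs. The permutations were not confined to libraries of 1 genotype. Without the 2 libraries farthest from the median of the oocyte sum, double mutant replicates 2 and 3, r was 0.84. After subtraction of genotype means r was 0.97, and in each of the 4 genotypes the order of the ratio was the order of the oocyte sum. Sperm markers (51 genes, of which 1 was at 0 in 6 libraries) summed to 11077, 10319 and 13995 TPM in double mutant libraries, 15486, 5888 and 8246 TPM in atfs-1(null) libraries, 8566 and 8659 TPM in nhr-180(cmh19) libraries, and 7747, 2724 and 5650 TPM in wildtype libraries. The same ratio had r = 0.95 with that sum (permutation p = 2e-05, the smallest that these permutations can give; adjusted p = 0.00024; rho = 0.95; r = 0.94 without atfs-1(null) replicate 1 and wildtype replicate 2; r = 0.95 within genotypes). The order of the ratio was that of the sperm sum in atfs-1(null) and wildtype, but not in the double mutant or nhr-180(cmh19). The relation was chosen after the values were seen, both marker sums come from the libraries that gave the ratio, and the part of germline content in the paralog ratio was not tested.

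The other pair with near-equal copies ran the opposite way. It encodes uL23, which sits beside the exit of the peptide tunnel; rpl-25.1 lies at X:4715178-4715796 on the plus strand and rpl-25.2 at I:8329062-8329647 on the minus strand. The rpl-25.2 mRNA had 1897, 1985 and 1939 TPM in double mutant libraries, 2196, 1698 and 1744 TPM in atfs-1(null) libraries, and 1546 and 1575 TPM in nhr-180(cmh19) libraries, against 1667, 1636 and 1682 TPM in wildtype libraries. The rpl-25.1 mRNA had 1657, 1435 and 1116 TPM in double mutant libraries, 1489, 1633 and 1637 TPM in atfs-1(null) libraries, and 1142 and 1274 TPM in nhr-180(cmh19) libraries, against 1442, 1697 and 1561 TPM in wildtype libraries. In TPM, both nhr-180(cmh19) libraries had less of each paralog than any wildtype library, and double mutant libraries had more rpl-25.2 than any wildtype library. In CPM scaled by TMM, the rpl-25.2 libraries overlapped between nhr-180(cmh19) and wildtype, and between the double mutant and wildtype. The ratio of rpl-25.1 to rpl-25.2 was 0.873, 0.723 and 0.576 in double mutant libraries 1 to 3, 0.678, 0.962 and 0.939 in atfs-1(null) libraries, and 0.739 and 0.809 in nhr-180(cmh19) libraries, against 0.865, 1.04 and 0.928 in wildtype libraries. Both nhr-180(cmh19) libraries lay below all wildtype libraries, and the double mutant overlapped wildtype at replicate 1. Across libraries it fell with the oocyte sum (r = -0.76, permutation p = 0.0077, adjusted p = 0.023; rho = -0.76, adjusted p = 0.027), with r = -0.56 without double mutant replicates 2 and 3 and r = -0.79 within genotypes. The relation with the oocyte sum was thus weaker without those 2 libraries, and in each of the 4 genotypes the order of this ratio was the reverse of that of the oocyte sum. With the sperm sum r was -0.81 (permutation p = 0.00056, adjusted p = 0.0022; rho = -0.84), or -0.79 without atfs-1(null) replicate 1 and wildtype replicate 2. The order of the rpl-25.1 to rpl-25.2 ratio was the reverse of that of the sperm sum in atfs-1(null) and wildtype, but not in the double mutant or nhr-180(cmh19). In both pairs the copy on chromosome X tended to be low relative to its autosomal partner in libraries with much germline marker mRNA. Any part of the chromosome in this was not tested.

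The remaining pairs did not pass that test with either marker list. Adjusted p was 0.65 or more for every r and 0.60 or more for every rho. These were rpl-24.2 over rpl-24.1, rpl-41.1 over rpl-41.2, rpl-7A over rpl-7 and rla-1 over rla-2, the last of which averaged 2.57 ± 0.149 in the double mutant, 2.74 ± 0.327 in atfs-1(null), 2.67 ± 0.343 in nhr-180(cmh19) (n = 2) and 2.70 ± 0.101 in wildtype (SD, n = 3 elsewhere). After subtraction of genotype means, rpl-41.1 over rpl-41.2 had r = 0.63 with the oocyte sum and 0.73 with the sperm sum. For the other pairs named here that r lay between -0.15 and 0.43. A relation within genotypes was thus not confined to the rpl-11 and rpl-25 pairs. Each member was also set beside the oocyte sum after the median of the members in its library was subtracted. Over the 77 abundant members, r had a median of -0.02 and quartiles of -0.26 and 0.22, given as a description over the same 11 libraries. The highest were rpl-25.2 at 0.94 and rpl-11.1 at 0.85, and the lowest was rpl-11.2 at -0.90, while rpl-25.1 stood 11th from the bottom at -0.47. Next highest were rpl-21 at 0.73 and rps-4 at 0.72, and next lowest was rps-23 at -0.69, none of them on chromosome X.

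**Figure D2:**
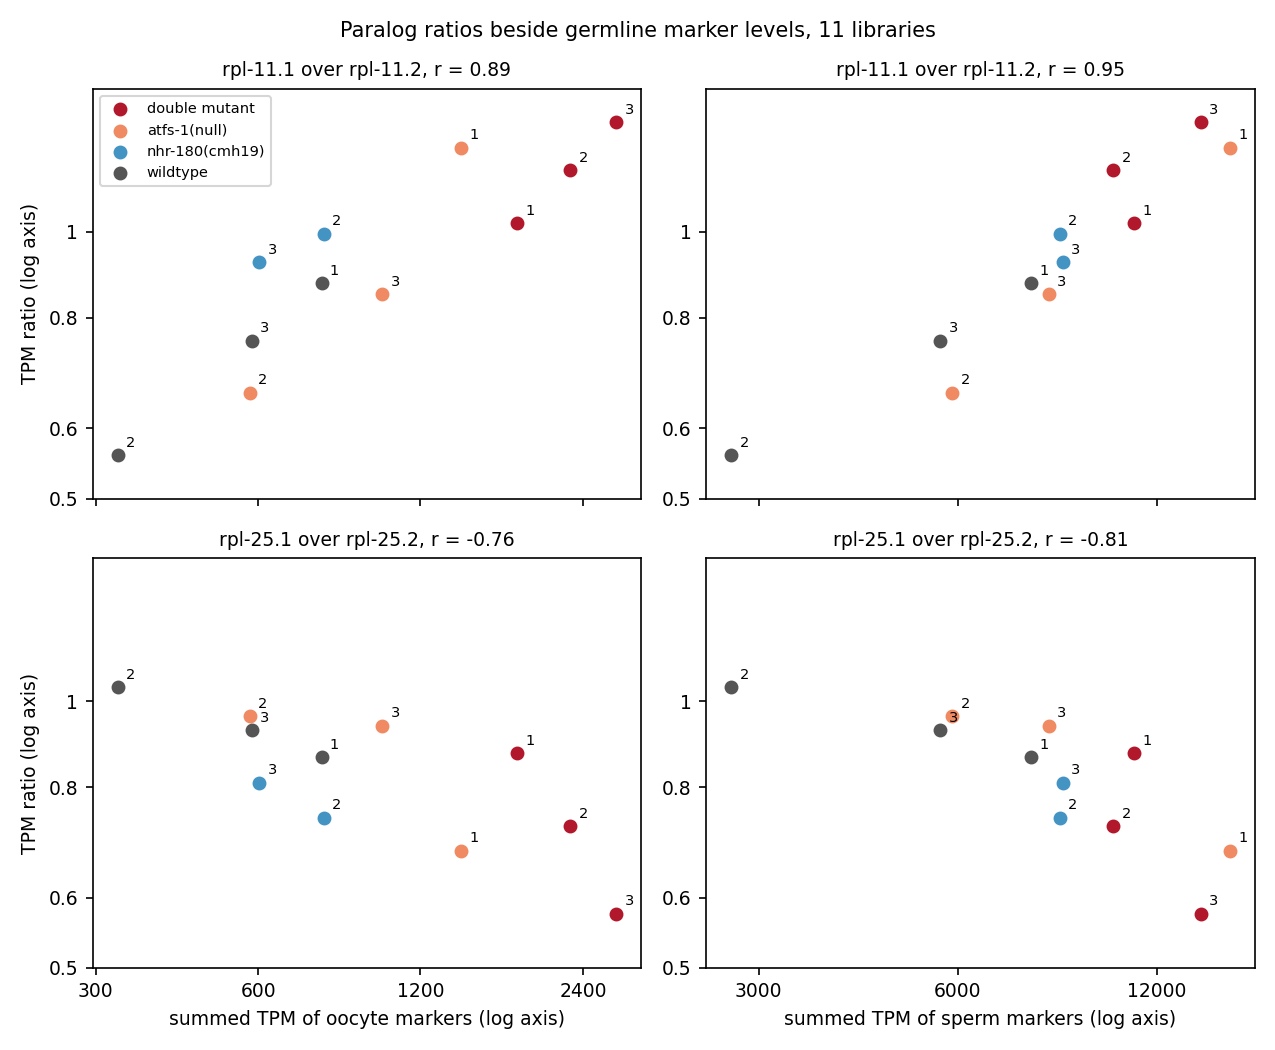
TPM ratio of rpl-11.1 to rpl-11.2 (top) and of rpl-25.1 to rpl-25.2 (bottom) against the summed TPM of oocyte markers (left) and sperm markers (right), all on log axes, 1 point per library, coloured by genotype and numbered by replicate. The top ratio rises from left to right (r = 0.89 and 0.95) and the bottom ratio falls (r = -0.76 and -0.81).

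For the comparison of genotypes, edgeR's quasi-likelihood model was fitted to the counts of all 16013 genes in all 11 libraries, with calls made where the p-value, adjusted by Benjamini and Hochberg's method over all of them, was under 0.05. Fold changes are on the log2 scale of CPM, the count scaled to a TMM-adjusted library size of 1000000. None of the 81 members was called in any of 6 comparisons. The share of all genes called was 14.3% in atfs-1(null) against wildtype and 2.24% in nhr-180(cmh19) against wildtype. For the double mutant it was 0.443% against atfs-1(null), 18.5% against nhr-180(cmh19) and 16.3% against wildtype, and it was 1.14% for the interaction, which asks whether the nhr-180 effect differs with atfs-1. At an unadjusted p under 0.05 the members called were 1, 2, 2, 0, 1 and 0 in that order of comparisons, against 29.9%, 18.8%, 8.99%, 33.5%, 32.2% and 14.9% of all genes. The DESeq2 Wald test called 1, 1, 0, 0, 1 and 0 members, against 16.9%, 5.23%, 1.29%, 20.4%, 18.8% and 2.81% of the genes it adjusted. The standard error of a member's fold change had a median of 0.16 to 0.18 in the pairwise comparisons. The 95% interval lay within 2-fold either way for 78, 80, 81, 80 and 79 of the 81 members. The largest of the members' median fold changes, given next, were about as large as that standard error. A missing call therefore does not exclude a shift of that size.

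The members' median fold change is given beside that of all genes tested. In atfs-1(null) against wildtype it was 0.00, and 0.06 over all genes. In nhr-180(cmh19) against wildtype it was -0.15, and -0.02 over all genes, with 78 of 81 members below 0. With the double mutant set against atfs-1(null) it was -0.18, and -0.00 over all genes, with 73 below 0, all 31 small-subunit genes among them. Set against nhr-180(cmh19) it was -0.02, and -0.01 over all genes. Set against wildtype it was -0.17, and 0.02 over all genes, with 76 below 0, and for the interaction it was -0.01, and 0.01 over all genes.

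Single libraries moved these medians. Leaving out atfs-1(null) replicate 1 gave a median of -0.14 in atfs-1(null) against wildtype, and leaving out its replicate 3 gave 0.08. Without nhr-180(cmh19) replicate 2 the median for nhr-180(cmh19) against wildtype was 0.01, and without replicate 3 it was -0.35, leaving 1 library in that genotype, assumed to vary like the others. The double mutant stood at -0.04 against atfs-1(null) without atfs-1(null) replicate 1, and against wildtype it stayed between -0.24 and -0.11 over the libraries left out in turn. On the scale of log2(TPM + 1) the median of all genes lay higher, at 0.13 for the double mutant against wildtype and 0.11 against nhr-180(cmh19). There the members' median was -0.03 against wildtype, a difference of -0.16 from all genes as compared with -0.19 on the CPM scale, and 0.13 against nhr-180(cmh19).

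**Figure D3:**
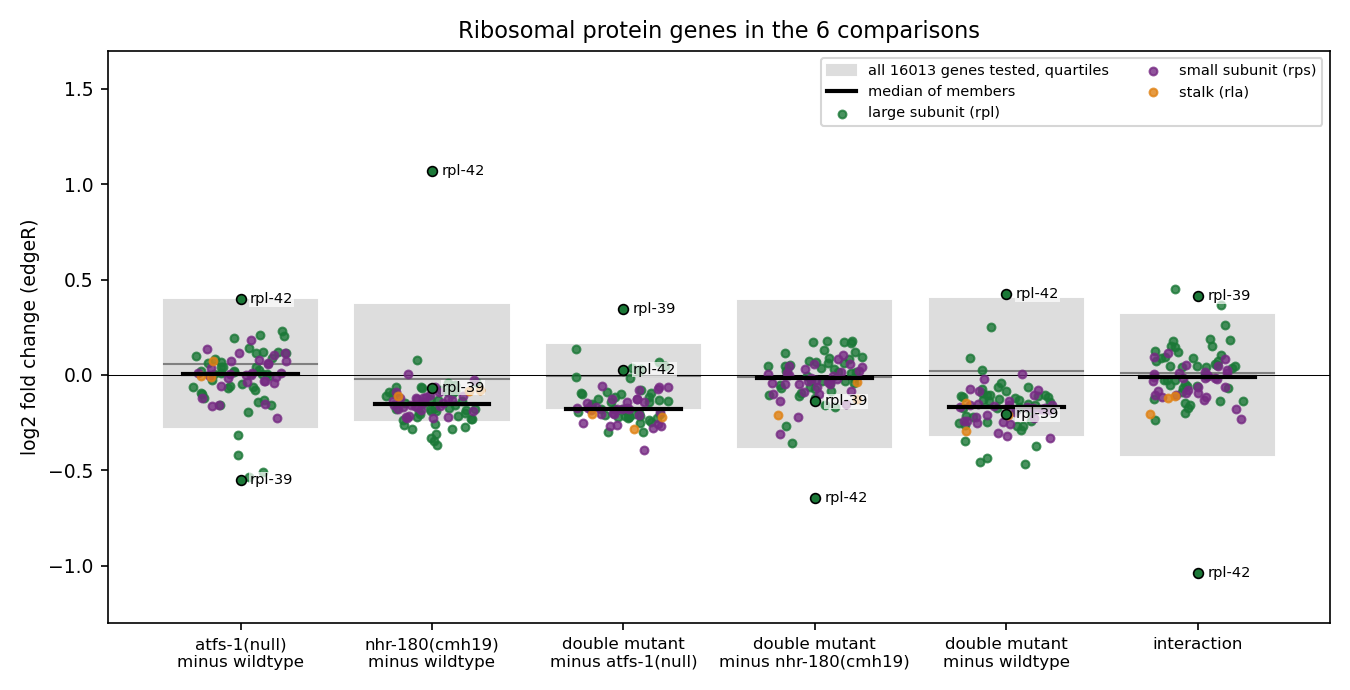
Log2 fold change (edgeR) of the 81 members in each of the 6 comparisons, coloured by large subunit, small subunit and stalk, with the members' median (black line) and the median and quartiles of all 16013 genes tested (grey line and box). At least 70 of the 81 points lie inside the quartiles of all genes in each comparison except the double mutant against atfs-1(null), where 38 do and 42 lie below them, and the points of rpl-42 and rpl-39 are labelled.

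Among large-subunit members, rpl-39 encodes a very short protein that lines the exit tunnel and is the shortest member gene, with 236 exonic bases at V:7775742-7776079 on the minus strand. Its level was 294.3, 277.3 and 254.8 CPM in atfs-1(null) libraries 1 to 3, against 319.3, 468.6 and 423.0 CPM in wildtype libraries 1 to 3. All 3 atfs-1(null) libraries lay below all wildtype libraries, in CPM and in TPM. It was one of 5 members whose libraries did not overlap in CPM in that comparison, against 31.7% of all genes. In TPM they were 23, against 32.6% of all genes in either direction. Of these 23, 22 were higher, and the share of all genes in that direction is not given. The log2 fold change was -0.55 ± 0.18 (SE), with an adjusted p of 0.062 by edgeR and 0.026 by DESeq2, and edgeR called it without wildtype replicate 1. Double mutant libraries had 384.5, 329.7 and 335.3 CPM of rpl-39, all above atfs-1(null), with a log2 fold change against atfs-1(null) of 0.34 ± 0.18 and an adjusted p of 0.63 by edgeR. The interaction was 0.41 ± 0.26 with an adjusted p of 0.49 by edgeR. Of its 236 bases, 18 also belong to grl-10 on the opposite strand, which stood at 20.9 to 37.996 TPM.

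The level of rpl-3 varied little between replicates. It was 4950, 4854 and 4834 CPM in double mutant libraries, 5336, 5082 and 5267 CPM in atfs-1(null) libraries, and 4419 and 4918 CPM in nhr-180(cmh19) libraries, against 5622, 5814 and 5611 CPM in wildtype libraries. Every mutant library lay below every wildtype library. The log2 fold change against wildtype was -0.22 ± 0.10 in the double mutant (adjusted p = 0.17 by edgeR and 0.032 by DESeq2). It was -0.12 ± 0.10 in atfs-1(null) (0.47 by edgeR and 0.26 by DESeq2) and -0.28 ± 0.12 in nhr-180(cmh19) (0.23 by edgeR and 0.038 by DESeq2). In TPM, double mutant libraries had 3952, 3917 and 4200 and nhr-180(cmh19) libraries 3503 and 3460, all below the wildtype libraries at 4275, 4253 and 4236, while atfs-1(null) libraries, at 3878, 4190 and 4490, overlapped wildtype. Several worm ribosomal protein genes, rpl-3 among them, are known to make alternative transcripts destroyed by nonsense-mediated decay, which a count per gene does not separate; rpl-3 has 5 annotated transcripts.

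In nhr-180(cmh19) against wildtype the smallest unadjusted p was that of rpl-42, the least abundant member, with 77 and 86 reads in nhr-180(cmh19) libraries against 57, 26 and 27 in wildtype libraries. It had 3.44 and 3.89 CPM in nhr-180(cmh19), against 2.67, 1.203 and 1.35 CPM in wildtype. The log2 fold change was 1.07 ± 0.37 with an adjusted p of 0.17 by edgeR. The libraries did not overlap in CPM for 10 members in this comparison, against 47.4% of all genes, and 9 of them were lower, against 22.4%. In TPM they were 38 members, against 44.3%, with 37 lower, against 20.6%. Those next in p were rpl-3, rpl-20 (-0.28 ± 0.15), rpl-25.1 (-0.37 ± 0.20) and rpl-12 (-0.27 ± 0.15), the last a protein of the stalk base, with adjusted p of 0.34, 0.35 and 0.36 for the last 3 by edgeR.

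Adding nhr-180(cmh19) to atfs-1(null) gave 15 members whose libraries did not overlap in CPM, against 12.1% of all genes. Of these, 14 were lower, against 6.1%. In TPM they were 18 members, against 12%, with 17 lower, against 4.6%. The assembly-factor relative rpl-24.2 had 50.7, 49.6 and 46.3 CPM in the double mutant, against 67.8, 57.9 and 55.1 CPM in atfs-1(null). Its log2 fold change was -0.30 ± 0.13 with an adjusted p of 0.51 by edgeR. The small-subunit gene rps-5 had 2194, 1778 and 2320 CPM in the double mutant, against 3405, 2442 and 2422 CPM in atfs-1(null), a fold change of -0.39 ± 0.17 with an adjusted p of 0.52 by edgeR. The S6 kinase substrate gene rps-6 had 1847, 1715 and 2015 CPM in the double mutant, against 2385, 2090 and 2205 CPM in atfs-1(null) and 2309, 2163 and 2171 CPM in wildtype. In CPM all 3 double mutant libraries lay below the libraries of both other genotypes. In TPM the double mutant, at 2631, 2470 and 3124, overlapped atfs-1(null), at 3093, 3075 and 3353, and wildtype, at 3133, 2823 and 2924, and neither difference passed the test on counts (adjusted p = 0.61 against atfs-1(null) and 0.21 against wildtype by edgeR). Next by p were rpl-39 and rpl-9 (-0.25 ± 0.13, adjusted p = 0.65 by edgeR).

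Between the double mutant and wildtype, the libraries did not overlap in CPM for 17 members, against 43.9% of all genes, and in TPM for 9, against 44.5%. The smallest p was that of rpl-11.2, with 1146, 1145 and 881.7 CPM in the double mutant against 1251, 1725 and 1384 CPM in wildtype, a log2 fold change of -0.46 ± 0.18 and an adjusted p of 0.099 by edgeR. Of the 22 oocyte markers, 20 were called higher in the double mutant than in wildtype, where 10.1% of all genes were, and their part in this difference was not tested. In CPM, the one member whose libraries lay wholly above wildtype was its paralog rpl-11.1, with 1049, 1202 and 1049 CPM in the double mutant against 979.8, 864.0 and 932.6 CPM in wildtype, a fold change of 0.25 ± 0.23 with an adjusted p of 0.49 by edgeR. The other members of small p were rpl-3, rps-6, rpl-41.1 (-0.47 ± 0.24) and rps-23 (-0.32 ± 0.17), with adjusted p of 0.17 to 0.22 by edgeR. Against nhr-180(cmh19) the double mutant libraries did not overlap in CPM for 1 member, rpl-42 (-0.65 ± 0.37, adjusted p = 0.25 by edgeR), against 54.9% of all genes. In TPM they did not overlap for 30 members, against 55% of all genes in either direction. Of these 30, 29 were higher, and the share of all genes in that direction is not given. Next by p in that comparison were rpl-41.1 (-0.36 ± 0.27), rps-28 (-0.31 ± 0.26), rpl-20 (0.18 ± 0.15) and the stalk gene rla-1 (-0.21 ± 0.20). For the interaction they were rpl-42 (-1.04 ± 0.51, adjusted p = 0.36 by edgeR), rpl-39, rpl-34 (0.37 ± 0.27), rpl-37 (0.45 ± 0.36) and rpl-24.2 (-0.24 ± 0.19).

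**Figure D4:**
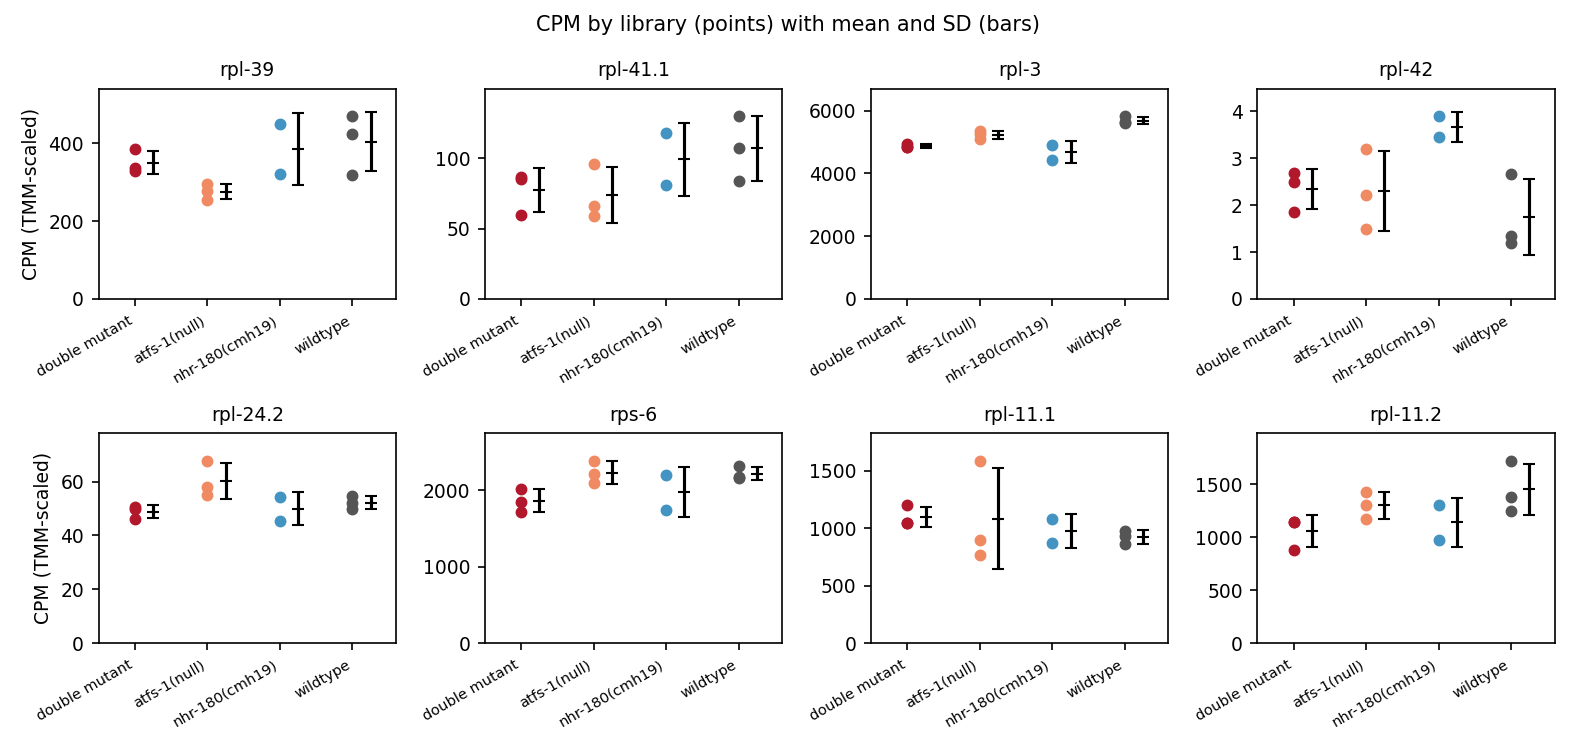
CPM (TMM-scaled) of 8 members in each library (points) with the mean and SD of each genotype (bars), double mutant first and wildtype last. In atfs-1(null) rpl-39 lies between 254.8 and 294.3 CPM, below the wildtype libraries at 319.3 to 468.6 CPM, and rpl-3 lies highest in wildtype.

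None of the 3 stalk genes passed the test in any comparison. The rla-0 gene, which anchors the stalk, had 3423, 3166 and 3608 CPM in the double mutant, 4192, 3849 and 3860 CPM in atfs-1(null), and 3173 and 3802 CPM in nhr-180(cmh19), against 3905, 3686 and 3705 CPM in wildtype. In CPM, double mutant libraries lay below those of atfs-1(null) and wildtype, while in TPM they overlapped both, with 3852, 3601 and 4418 TPM against 4294, 4473 and 4638 TPM in atfs-1(null) and 4185, 3801 and 3943 TPM in wildtype. On the CPM scale of the test, the double mutant had log2 fold changes of -0.22 ± 0.12 against atfs-1(null) and -0.15 ± 0.12 against wildtype, with adjusted p of 0.65 and 0.42 by edgeR. The ubiquitin fusion genes ubl-1 and ubq-2, which encode 2 further ribosomal proteins under other names, were not called in any comparison, with fold changes between -0.23 and 0.14.

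Long and short members stood apart in several libraries, as did long and short genes outside the family. For the 77 abundant members, the correlation of a gene's log2 CPM deviation with its log2 exonic length was -0.15, -0.41 and 0.43 in double mutant libraries 1 to 3, 0.03, 0.35 and 0.67 in atfs-1(null) libraries, and -0.17 and -0.65 in nhr-180(cmh19) libraries, against 0.65, -0.59 and -0.39 in wildtype libraries. These are correlations across genes of a library, which share its preparation, and no p is given. Over 6273 other protein-coding genes at or above 10 TPM in every library the same correlation was 0.04, -0.20 and 0.45 in double mutant libraries, -0.52, 0.13 and 0.39 in atfs-1(null) libraries, and 0.03 and -0.48 in nhr-180(cmh19) libraries, against 0.26, -0.05 and 0.09 in wildtype libraries. It lay near that of the members in double mutant replicate 3 and far from it in atfs-1(null) replicate 1 and wildtype replicate 2. Replicates of 1 genotype stood at opposite ends: long members were relatively high in wildtype replicate 1 and low in wildtype replicate 2. In the comparison of atfs-1(null) with wildtype, the correlation of fold change with length was 0.56 over the members and -0.07 over the other genes (for those, of the difference in mean log2 TPM), and the members with the lowest fold changes there, rpl-39, rpl-41.1 (-0.54 ± 0.24), rpl-37 (-0.51 ± 0.24) and rpl-41.2 (-0.42 ± 0.25), were all short, at 236, 331, 276 and 280 bases. The part of length in those differences was not tested.

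**Figure D5:**
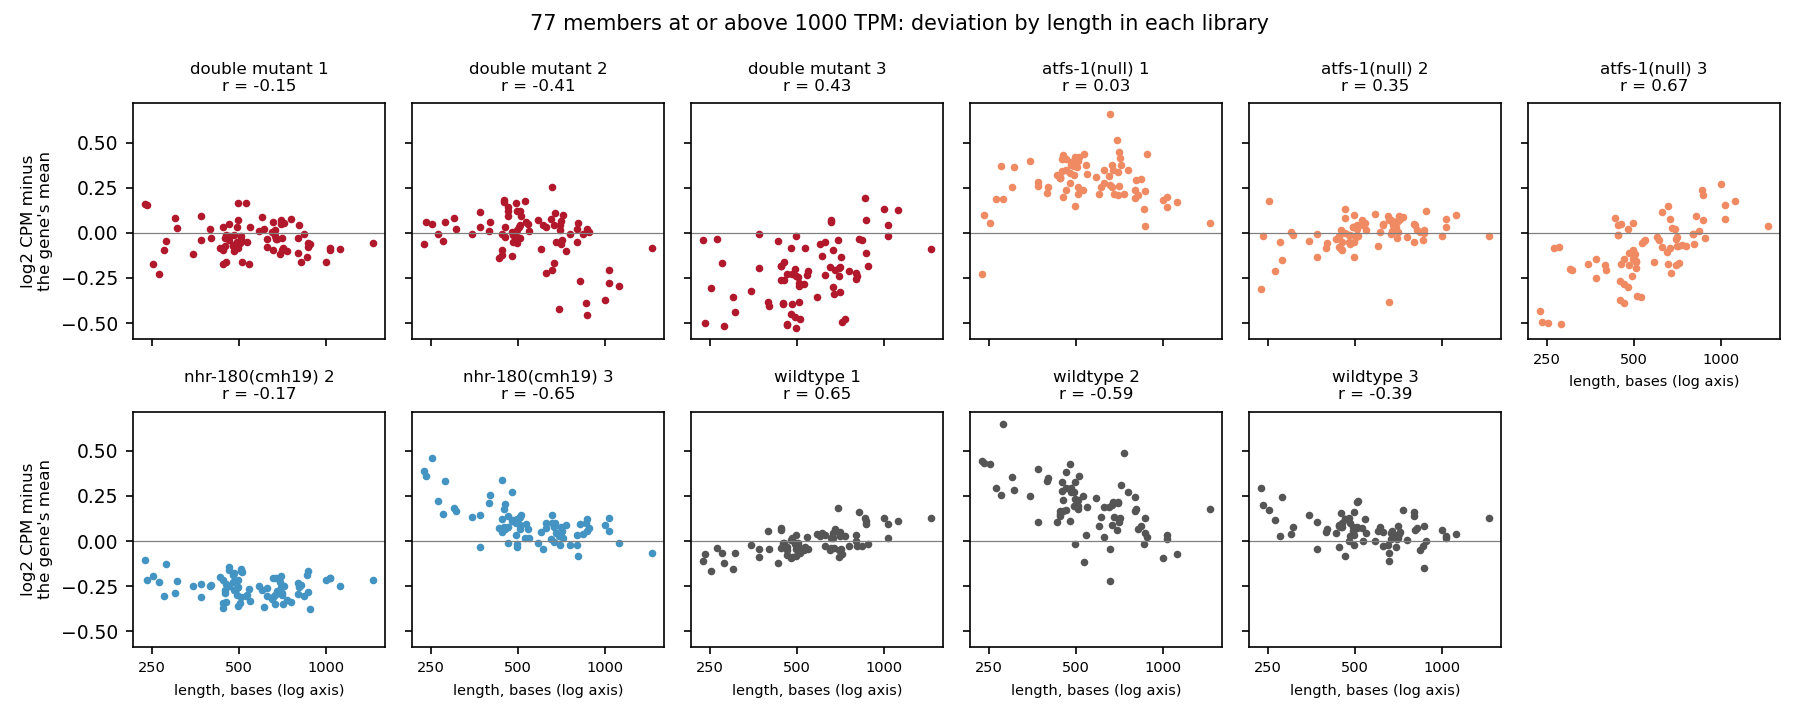
Log2 CPM minus the gene's mean over the libraries against exonic length (bases, log axis) for the 77 members at or above 1000 TPM, 1 panel per library with Pearson's r across genes. The trend runs upward in atfs-1(null) replicate 3 and wildtype replicate 1 (r = 0.67 and 0.65) and downward in nhr-180(cmh19) replicate 3 and wildtype replicate 2 (r = -0.65 and -0.59).

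Other parts of the translation machinery were counted over the same fit. Of 71 mitochondrial ribosomal protein genes, 41 were lower in atfs-1(null) than in wildtype, where 6.77% of all genes were, and 43 were lower in the double mutant than in wildtype, where 6.27% of all genes were, against 0 of the 81 cytosolic ones. The first count was 23 and 21 without atfs-1(null) replicates 2 and 3, and 27, 18 and 14 without wildtype replicates 1, 2 and 3. The second count was 21 and 18 without double mutant replicates 1 and 3, and 20 and 18 without wildtype replicates 2 and 3. Between the double mutant and nhr-180(cmh19), 2 were lower, where 8.21% of all genes were (6 without atfs-1(null) replicate 1 and 0 without nhr-180(cmh19) replicate 3).

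Of 46 cytosolic translation factor genes, 2 rose and 2 fell in atfs-1(null) against wildtype, where 7.54% and 6.77% of all genes did, a smaller share of the list than of all genes. The 2 that rose encode parts of the elongation factor complex that recharges eEF1A. The eef-1G mRNA had 2019, 2388 and 2463 TPM in atfs-1(null), against 1434, 1316 and 1412 TPM in wildtype (log2 fold change 0.62 ± 0.11, adjusted p = 0.0048 by edgeR). The eef-1B.1 mRNA had 1580, 1551 and 1529 TPM in atfs-1(null), against 935, 876 and 956 TPM in wildtype (0.66 ± 0.13, adjusted p = 0.0082 by edgeR). Both calls held in every alternative tried, with adjusted p of at most 0.045. In TPM, no library of either gene overlapped between these genotypes. Of the 2 that fell, erfa-1, the release factor gene, had a fold change of -0.58 ± 0.13 (adjusted p = 0.011 by edgeR). The count that fell was 0 without wildtype replicate 3, and 1 without atfs-1(null) replicate 2, double mutant replicate 1, wildtype replicate 1 or 2, or either nhr-180(cmh19) library. The double mutant had 3 factors higher and 3 lower than wildtype, near or below the 10.1% and 6.27% of all genes, with eef-1G at 0.47 ± 0.11 and eef-1B.1 at 0.49 ± 0.13 among those higher. Without double mutant replicate 1, wildtype replicate 2 or wildtype replicate 3, none was called either way, and without double mutant replicate 2 it was 1 each way. None was higher without double mutant replicate 3, 1 was higher and 0 lower without wildtype replicate 1, and 7 were lower without atfs-1(null) replicate 1. Relative to nhr-180(cmh19), 5 factor genes and 4 of 20 cytosolic tRNA synthetase genes rose in the double mutant, where 10.3% of all genes rose, and 0 of both without nhr-180(cmh19) replicate 2 or replicate 3. Without double mutant replicate 1, 1 factor and 1 synthetase gene rose, and without replicate 2 they were 2 and 1. They were 2 and 2 without double mutant replicate 3 or wildtype replicate 3, and 2 synthetase genes rose without wildtype replicate 1 or 2. Of 45 ribosome biogenesis genes tested, 1 fell in atfs-1(null) against wildtype (0 without wildtype replicate 1 or 3, and 2 without atfs-1(null) replicate 1). Of the same genes 2 rose in the double mutant against nhr-180(cmh19) (0 when either nhr-180(cmh19) library was left out, 1 without double mutant replicate 2), and 1 rose and 1 fell in it against wildtype (0 when any 1 library of the double mutant, wildtype or nhr-180(cmh19) was left out). The remaining comparisons, nhr-180(cmh19) with wildtype, double mutant with atfs-1(null) and the interaction, called no gene of these lists, though without atfs-1(null) replicate 1 there were 5 translation factors and 2 mitochondrial ribosomal proteins lower in nhr-180(cmh19) than in wildtype.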

How the data were processed

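The authors deposited read counts per gene, (featureCounts 1.5.2 is the counter named in the submitters' processing notes), and a table of length-normalised TPM values, per the file headers. The libraries were stranded and paired-end, per the labels' protocols. The aligner, genome build, strand setting and handling of reads shared by paralogs were not stated in the labels or headers. Paralog counts and the members overlapping other genes (15 on the other strand) therefore carry that uncertainty. Gene spans equalled those of WBcel235 for all 81 members. The counts were filtered with filterByExpr, scaled by TMM and fitted with edgeR 4.0.16 (R 4.3.3) over 11 libraries, each genotype having its own mean. DESeq2 1.42.0 and limma 3.58.1 (log2 TPM plus 1 or 0.1) were alternatives, and the model was tested on simulated data. Levels between genes are compared in TPM. CPM uses TMM-adjusted library sizes, and intervals are 95%. Named members are the 5 highest and lowest in mean TPM, the 5 of smallest p per comparison, and a set of paralogs, stalk and other genes. The members and lists were chosen with earlier results of these data known. Ratios of paralogs and other pairs were set beside the marker lists after seeing the data, with 2-sided tests of 100000 permutations. The permutations moved values freely over all 11 libraries, so their p-values also take in differences between genotypes. No p was computed for r within genotypes. The p-values of the genotype comparisons measure the spread between these replicates.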

Additional observations from a re-analysis of the deposited data

How the results depend on the processing

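No member was called by edgeR in any comparison. The alternatives that called 1 member were the DESeq2 Wald test (rpl-39 lower in atfs-1(null), rpl-3 lower in nhr-180(cmh19) and rpl-3 lower in the double mutant, each against wildtype), leaving out wildtype replicate 1 (rpl-39 lower in atfs-1(null); 0 to 1 over the libraries left out), and limma on log2 TPM with a minimum of 1 TPM in 2 libraries, for either pseudocount (rpl-20 higher in the double mutant than in nhr-180(cmh19)). With the replicate number as a block, 1 member was called in nhr-180(cmh19) against wildtype (rpl-42 higher) and 1 in the double mutant against nhr-180(cmh19) (rpl-42 lower). The correlation of deviations ran between -0.41 and 0.61 for same-numbered libraries of different genotypes. For differently numbered ones it ran between -0.54 and 0.41. The deviations of the 2 nhr-180(cmh19) libraries mirror each other by construction, and the -0.41 came from there. Without that genotype the range for same-numbered libraries was -0.27 to 0.61. All of these were positive except double mutant replicate 1 with wildtype replicate 1, while differently numbered libraries had both signs. These ranges do not settle whether the numbers pair the samples. The members' median ran between -0.35 and 0.011 over the libraries left out for nhr-180(cmh19) against wildtype, between -0.17 and 0.17 with the double mutant set against nhr-180(cmh19), and between -0.17 and 0.18 for the interaction. Without wildtype replicate 2 and atfs-1(null) replicate 1 together, a choice made after seeing the data, as was scaling by counts outside the members, it was -0.06 in atfs-1(null), -0.06 in nhr-180(cmh19) and -0.10 in the double mutant, each against wildtype. As a share of counts, the members took 13.2% in the double mutant, 14.997% in atfs-1(null), 12.6% in nhr-180(cmh19) and 13.7% in wildtype. In TPM in place of CPM, a comparison also added after seeing the data, the members whose libraries did not overlap were 23 (5 in CPM) in atfs-1(null) against wildtype, 38 (10) in nhr-180(cmh19) against wildtype, 30 (1) in the double mutant against nhr-180(cmh19) and 9 (17) in it against wildtype. In that order the shares of all genes, in either direction, were 32.6%, 44.3%, 55% and 44.5% in TPM. In CPM they were 31.7%, 47.4%, 54.9% and 43.9%. Among the comparisons just listed, the members' share lay below that of all genes except for nhr-180(cmh19) against wildtype in TPM, where it lay slightly above. There 37 of the 38 members were lower, against 20.6% of all genes. That list leaves out the effect of adding nhr-180(cmh19) to atfs-1(null), where the members' share lay above that of all genes on both scales. It was 18.5% against 12.1% in CPM, and 22.2% against 12% in TPM. Depth bears most on rpl-42, with 26 to 86 reads per library, while the 77 members at or above 1000 TPM had at least 5737. The cause of these shifts was not tested.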
